A study of Mus musculus with 8 samples.

Results

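The synaptic vesicle and release machinery was examined as 40 genes among the 55032 genes counted in mouse striatum. They were chosen by symbol from lists of vesicle proteins, SNAREs, active zone proteins and endocytic proteins. Their values were not used as a rule, but earlier results of these data were known when they were chosen. All 40 had a row, and all 40 passed the filter on low counts, which kept 18294 genes. The striatum came from female C57BL/6 mice at postnatal day 60 (P60), and each mouse gave 1 library of total RNA. There were 4 wild type (WT) mice, named WT-1015, WT-1041, WT-1061 and WT-1063, and 4 16p11.2+/- mice, named DF-1018, DF-1037, DF-1059 and DF-1062 as in the labels, and values of the 4 mice of a group are always given in this order. The 16p11.2+/- mice carry on 1 copy of chromosome 7 a deletion of the segment that corresponds to human 16p11.2. The deletion is in the germline, so neurons of the striatum and neurons that project to it carry it alike. Between 15125051 and 16387993 reads per WT mouse and between 15240680 and 16523429 reads per 16p11.2+/- mouse were counted on genes. None of the 40 genes lies in the segment of chromosome 7 (126695401 to 127208468, GRCm38) spanned by the 17 genes of the region that were lower in 16p11.2+/- mice, and Syt5 and Sv2b are the 2 members on that chromosome.

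At a nerve terminal, vesicles filled with transmitter are tethered by synapsins, docked at the active zone by Rab3 and its effectors, primed by Munc13 proteins and fused with the membrane by SNARE proteins when a synaptotagmin binds calcium. NSF and its adaptors then take the SNARE complex apart, and dynamin, amphiphysin, endophilin and synaptojanin retrieve the membrane. Medium spiny neurons, the main cells of the striatum, release GABA, and the tissue also holds terminals of cortical, thalamic and midbrain neurons. The mRNA of those terminals stays largely in cell bodies outside the striatum, so striatal RNA reports mostly the release machinery of cells whose bodies were in the dissected piece.

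The stretches upstream of 4 members are shown because they hold a well known control element of neuronal genes, RE1, to which the repressor REST binds (Syn1 and Rph3a), or because the genes differed the most between mice (Stx1a and Vamp1). They are RefSeq sequences (GRCm38.p6) of up to 250 bases that end just before an annotated start, given 5′ to 3′ on the strand of the gene without annotated exon bases. Capitals mark an RE1 element, a cyclic AMP response element (CRE, TGACGTCA) or an Sp1 GC box (GGGCGG, or CCGCCC on the other strand).
Syn1, chrX:20921005-20921168, minus strand: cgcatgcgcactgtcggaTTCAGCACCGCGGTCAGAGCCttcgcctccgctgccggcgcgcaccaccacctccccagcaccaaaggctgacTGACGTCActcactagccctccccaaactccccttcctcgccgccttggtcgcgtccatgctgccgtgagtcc
Rph3a, chr5:121009539-121009788, minus strand: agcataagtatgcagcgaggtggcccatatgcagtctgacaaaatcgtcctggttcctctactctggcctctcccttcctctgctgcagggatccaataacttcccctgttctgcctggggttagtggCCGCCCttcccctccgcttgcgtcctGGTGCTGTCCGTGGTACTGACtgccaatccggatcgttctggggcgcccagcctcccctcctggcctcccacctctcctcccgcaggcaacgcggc
Stx1a, chr5:135023232-135023481, plus strand: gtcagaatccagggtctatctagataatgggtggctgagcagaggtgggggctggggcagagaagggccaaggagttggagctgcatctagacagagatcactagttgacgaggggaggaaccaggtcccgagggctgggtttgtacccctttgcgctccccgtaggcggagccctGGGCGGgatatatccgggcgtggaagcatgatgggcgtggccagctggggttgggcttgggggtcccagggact
Vamp1, chr6:125215331-125215550, plus strand: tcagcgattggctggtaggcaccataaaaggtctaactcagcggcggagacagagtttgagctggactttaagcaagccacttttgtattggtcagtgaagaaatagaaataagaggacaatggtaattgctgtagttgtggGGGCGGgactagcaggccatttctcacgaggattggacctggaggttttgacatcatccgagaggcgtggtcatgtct

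RefSeq had an upstream window of 250 bases for 32 of the 40 genes, with 42 windows in all, and 6 motifs were searched on both strands. An Sp1 GC box was found in 57.1% of these windows, against 32.7% of all 32851 windows of the same length. It was also in 63.6% of the 77 windows of further genes of the same machinery (the wider list, described below). The median GC content was 59.8% in windows of members, 62.4% in those of the wider list and 52.4% in all windows. An RE1 element (at most 3 mismatches in the 18 fixed letters of its consensus) was present upstream of Syn1, a synapsin, and of Rph3a, which encodes the Rab3 effector rabphilin, that is in 4.76% of windows against 0.0761% of all. In Syn1 it lay from 232 to 212 bases before the RefSeq start, and in Rph3a from 96 to 76 bases before a start inside the gene. The last 86 bases of the Syn1 window are annotated exon and are not in the stretch shown, which ends that far before the RefSeq start. A CRE was present upstream of Syn1 and Sh3gl2, in 4.76% of windows against 1.55% of all. The Sh3gl2 window lies before a start inside the gene, and all its 250 bases are annotated exon. Of the other motifs, the NRF1 site was in the Bsn window alone, that is in 2.38% of windows against 0.782% of all. The E-box CACGTG was in 7.14% of windows against 6.02% of all, and the TATA box TATAAA was in 7.14% against 12.4%. A match of letters describes the window and not the binding of a factor.

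The release machinery was highly expressed. In FPKM, which is per kilobase of exon and can be compared between genes, the median of the members was 43.8, against 4.03 for all genes tested, and 38 of the 40 lay above the median of all genes tested and 28 above the 90th percentile. The highest mean FPKM over the 8 mice was that of Snap25 at 274, followed by Cplx2, Cplx1 and Vamp2, so the leading 4 all encode parts or partners of the SNARE complex. The lowest were those of Syn3 at 1.15, a synapsin, and Unc13b at 1.52, the Munc13-2 gene. The number of reads per mouse ran from 151 in the lowest mouse for Syn3 to 40230 in the highest for Snap25.

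**Figure D1:**
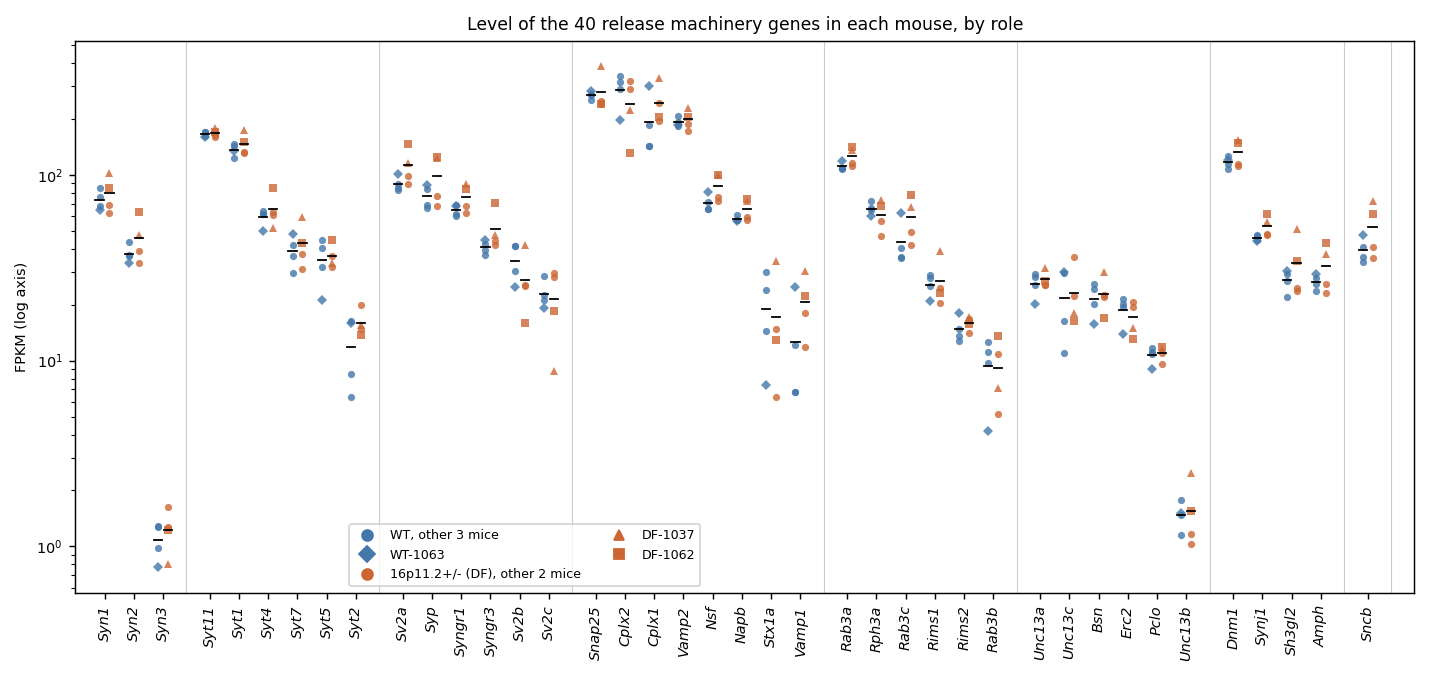
FPKM (vertical log axis) of each of the 40 genes (horizontal axis, grouped by role) in each mouse, with WT in blue, 16p11.2+/- in orange and a black bar for the mean of each group of 4 mice. Mouse WT-1063 (diamond) and mice DF-1037 (triangle) and DF-1062 (square) have their own symbols. The groups overlap for every gene, and mouse DF-1037 is the highest of all 8 for 20 genes.

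The libraries differed in markers of cell types, and mice WT-1063, DF-1018, DF-1037 and DF-1062 stood apart in 1 or more of them. The score of 10 medium spiny neuron genes, their mean log2 CPM (counts scaled to the size of the library), was between 8.06 and 8.83 in WT mice, 8.75 and 8.60 in mice DF-1018 and DF-1059, and 6.75 and 6.31 in mice DF-1037 and DF-1062. The score of 8 thalamic neuron genes was between 3.09 and 3.20 in 3 WT mice and 6.38 in mouse WT-1063, and it was 5.41, 6.33, 3.69 and 6.09 in the 16p11.2+/- mice. In the 8 genes of cortical glutamatergic neurons mouse DF-1037 was the highest of the 8 mice, with a score of 5.97, and mouse DF-1018 the lowest, with 2.23, while the other 2 16p11.2+/- mice had 4.47 and 2.70 and the WT mice 2.58 to 5.58. The summed FPKM of the medium spiny neuron list was 950 to 1603 in WT mice and 296 to 1494 in 16p11.2+/- mice, that of the thalamic list 15.2 to 192 and 22.5 to 204, and that of the cortical list 36.7 to 128 and 22.0 to 177, with no marker of the 3 lists at 0 in all mice. The part of these cell types in the values of the members was not tested, and in a bulk sample fewer cells of a type and less RNA per cell cannot be told apart. Mouse WT-1063 had the highest score of choroid plexus genes at 7.64, against 0.44 to 4.84 in the other mice. The scores of the other lists ran, in WT and in 16p11.2+/- mice, from 8.12 to 8.54 and from 7.56 to 8.19 for oligodendrocytes, from 5.49 to 6.06 and from 5.54 to 6.01 for striatal interneurons, and from 7.20 to 7.36 and from 7.09 to 7.42 for astrocytes. They ran from 5.001 to 5.50 and from 4.67 to 5.38 for microglia, and from 4.89 to 5.27 and from 4.68 to 5.43 for endothelium.

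The question of the comparison was whether these genes are expressed differently in 16p11.2+/- striatum. None of the 40 passed the test, edgeR's quasi-likelihood test with Benjamini-Hochberg adjustment over 18294 genes at 0.05, with which 0.109% of all genes tested (20 genes) were called. The lowest adjusted p of a member was 0.859. Also 0 of 40 had an unadjusted p under 0.05, against 4.32% of all genes, while DESeq2 called 0 after adjustment and gave 3 (Sv2a, Nsf and Synj1) an unadjusted p under 0.05, against 4.66%. The FPKM of the groups overlapped for all 40 genes, whereas the groups did not overlap for 2.83% of all genes. The log2 fold change of 16p11.2+/- against WT was above 0 for 33 members, against 48.2% of all genes tested, and its median was 0.10, against -0.01 over all genes tested. The 7 members with a log2 fold change below 0 were Sv2b, Sv2c, Stx1a, Cplx2, Rab3b, Rph3a and Erc2.

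Of the 40 genes, 20 had their highest FPKM in mouse DF-1037 and 12 in mouse DF-1062. Mouse DF-1037 lay above every WT mouse for 29 of the 40 genes, against 25.6% of all genes tested, and mouse DF-1062 did so for 18, against 35.5%. Mice DF-1018 and DF-1059 lay above every WT mouse for 2 and 3 genes, against 13.99% and 17.9% of all genes, and mouse DF-1018 lay below every WT mouse for 10, against 22.5%. Without mouse DF-1037 alone the log2 fold change was above 0 for 23 members, against 48.7% of all genes, with a median of 0.083, and without mouse DF-1062 alone it was above 0 for 32, against 51.7%, with a median of 0.13. Without both, an alternative chosen after seeing the data that by construction lowers the fold change of genes highest in these mice, the median log2 fold change of the members was -0.0067, with 19 of 40 above 0, against 47.6% of all genes tested in that fit, and 0 were called. The summed FPKM of the 40 genes was 2614 ± 51.0 (SD, n = 4) in WT mice and 2846 ± 343 (SD, n = 4) in 16p11.2+/- mice. It was 2571, 3318, 2614 and 2881 in the 16p11.2+/- mice, and between 2567 and 2659 in the WT mice, so mice DF-1018 and DF-1059 lay in the WT range and mice DF-1037 and DF-1062 lay above it. The latter were also the 2 mice with the lowest medium spiny neuron scores. The SD between mice of log2 CPM was larger in 16p11.2+/- mice than in WT mice for 31 of the 40 genes (77.5%), against 67.1% of the 9345 genes at least as abundant as the lowest member.

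**Figure D2:**
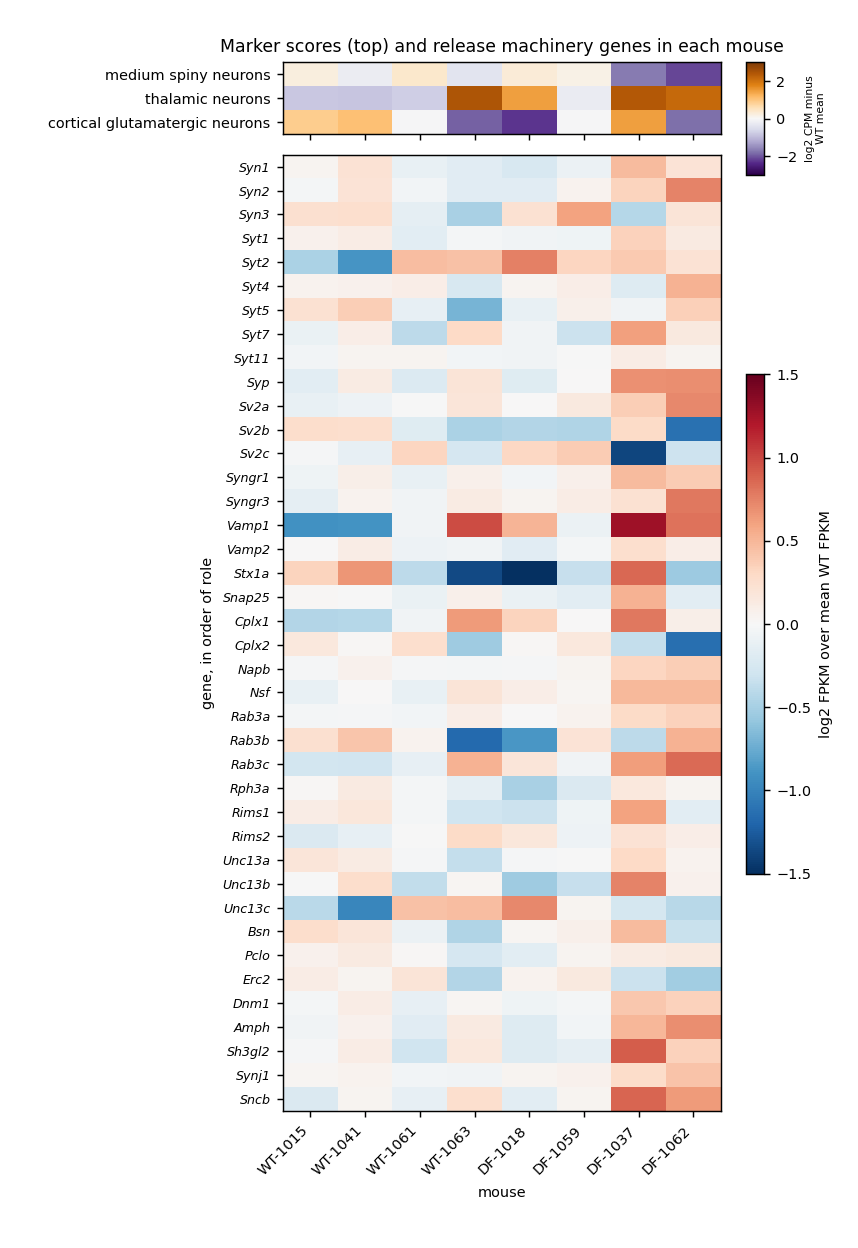
Upper panel: score of 3 marker lists (mean log2 CPM) in each mouse minus the WT mean. Lower panel: log2 of the FPKM of each of the 40 genes (rows, in order of role) in each mouse (columns) over the WT mean, where red is higher and blue is lower. The columns of mice DF-1037 and DF-1062 are red for most genes and hold the lowest medium spiny neuron scores (6.75 and 6.31).

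Synapsins coat vesicles and hold them in the reserve pool. The FPKM of Syn1 (ENSMUSG00000037217, chrX:20860511-20921004) was 75.6, 85.1, 67.6 and 65.0 in the WT mice and 61.9, 102, 68.9 and 84.5 in the 16p11.2+/- mice. The 16p11.2+/- group held both the highest mouse, DF-1037, and the lowest, DF-1018, so the groups overlapped over the whole WT range. The means were 73.3 ± 9.04 and 79.4 ± 17.9 (SD, n = 4 each), and the log2 fold change was 0.09 (standard error (SE) 0.16, edgeR unadjusted p = 0.576, adjusted p = 0.912). Syn2 had a log2 fold change of 0.25 (SE 0.17), with its highest FPKM, 63.1, in mouse DF-1062. Syn3, the rare synapsin, had an FPKM between 0.771 and 1.63 in all mice, and 14.1% of its exon length overlaps Timp3 on the other strand.

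Synaptotagmins sense calcium, with Syt1 and Syt2 as the fast sensors of release, Syt7 as a slow sensor of high affinity, and Syt4 and Syt11 as members that bind calcium poorly or not at all. Syt11 (ENSMUSG00000068923, chr3:88744700-88775164) was the most highly expressed of the 6 and the steadiest of the 40 members. Its FPKM was 161, 169.8, 171 and 160.3 in the WT mice and 159.6, 179, 164 and 170.5 in the 16p11.2+/- mice. No mouse stood apart, with the highest 1.12-fold above the lowest, and the log2 fold change was 0.0028 with a 95% confidence interval from -0.19 to 0.19. Syt2 varied 3.13-fold between mice, with 8.49, 6.36, 16.3 and 16.0 in the WT mice and 19.9, 15.5, 14.7 and 13.7 in the 16p11.2+/- mice. The first 2 WT mice were low and the other 2 were within the 16p11.2+/- range, and the log2 fold change was 0.42 (SE 0.30, edgeR adjusted p = 0.859). Syt1, Syt4, Syt5 and Syt7 had log2 fold changes of 0.08, 0.11, 0.05 and 0.12, each smaller than its SE (0.12, 0.14, 0.21 and 0.21).

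Of the 6 vesicle membrane proteins, Sv2a, a transporter-like protein that is the target of the drug levetiracetam, had the highest level of the 6, and the smallest unadjusted p of all 40 members. The FPKM of Sv2a (ENSMUSG00000038486, chr3:96181151-96195521) was 82.7, 84.4, 88.8 and 101 in the WT mice and 89.3, 115, 99.1 and 147 in the 16p11.2+/- mice. Mice DF-1037 and DF-1062 were above every WT mouse and the other 2 16p11.2+/- mice were within the WT range. The means were 89.2 ± 8.24 and 113 ± 25.4 (SD, n = 4 each), with a log2 fold change of 0.31 (SE 0.14, edgeR unadjusted p = 0.0546, adjusted p = 0.859) and an exact two-sided permutation p of 0.114 on FPKM. Without mice DF-1037 and DF-1062 the log2 fold change was 0.08. Its paralogue Sv2c, which among the 3 is known for its place in basal ganglia, had an FPKM of 22.6, 21.1, 28.7 and 19.2 in the WT mice and 28.3, 8.84, 29.8 and 18.4 in the 16p11.2+/- mice. Mouse DF-1037, the highest for 20 members, was the lowest for Sv2c, mouse DF-1018 was at the upper end of the WT range and mouse DF-1059 above it. The log2 fold change of Sv2c was -0.12 (SE 0.34) with all mice and 0.35 without mice DF-1037 and DF-1062. Sv2b, which in forebrain marks mainly glutamatergic neurons, had the lowest log2 fold change of the 40, -0.36 (SE 0.30), with FPKM of 24.9 to 41.5 in WT mice and 15.9 to 42.0 in 16p11.2+/- mice. Syp (synaptophysin), Syngr1 and Syngr3 (synaptogyrins) had log2 fold changes of 0.32, 0.22 and 0.29, and of -0.08, 0.03 and 0.08 without mice DF-1037 and DF-1062; 16.8% of the exon length of Syp overlaps Gm14703 on the other strand.

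The SNARE proteins Snap25, syntaxin (Stx1a) and synaptobrevin (Vamp1 and Vamp2) form the complex that fuses vesicle and membrane. The FPKM of Snap25 (ENSMUSG00000027273, chr2:136713453-136782428) was 273, 268, 252 and 282 in the WT mice and 250.2, 386, 240.5 and 240.5 in the 16p11.2+/- mice. Mouse DF-1037 was above all others, while the other 3 16p11.2+/- mice were below every WT mouse. The means were 269 ± 12.9 and 279 ± 71.3 (SD, n = 4 each), and the log2 fold change was 0.04 with all mice (SE 0.17) and -0.12 without mice DF-1037 and DF-1062. Vamp2, the main synaptobrevin of forebrain, had FPKM of 183 to 208 in WT mice and 172 to 229.7 in 16p11.2+/- mice, with a log2 fold change of 0.03 (SE 0.10).

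Among the SNARE genes, Stx1a and Vamp1 differed the most between mice of the same genotype (they were singled out after their values were seen). The FPKM of Stx1a (ENSMUSG00000007207, chr5:135023482-135051100) was 23.9, 29.9, 14.4 and 7.40 in the WT mice and 6.37, 34.2, 14.8 and 12.9 in the 16p11.2+/- mice. Each group thus had high and low mice, and the highest mouse, DF-1037, was 5.37-fold above the lowest, DF-1018. The log2 fold change was -0.17 with a 95% confidence interval from -1.39 to 1.06. The mice with high Stx1a, WT-1015, WT-1041 and DF-1037, had the 3 highest cortical scores (5.39, 5.58 and 5.97), and the part of cortical neurons in these values was not tested. Vamp1 (ENSMUSG00000030337, chr6:125215551-125245964), the synaptobrevin prominent in brainstem and spinal cord, had an FPKM of 6.74, 6.79, 12.2 and 24.8 in the WT mice and 17.95, 30.5, 11.9 and 22.2 in the 16p11.2+/- mice. The 4 mice above 15, mouse WT-1063 and mice DF-1018, DF-1037 and DF-1062, were the 4 with a thalamic score above 5, and the part of thalamic neurons was not tested. Vamp1 had the largest log2 fold change of the 40, 0.69 (SE 0.45, edgeR adjusted p = 0.859), which was 0.25 without mice DF-1037 and DF-1062 and 1.24 without mouse WT-1063. With the thalamic, medium spiny neuron or cortical score as a covariate it was 0.12, 0.34 and 0.73.

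The balance of the complexins, which clamp and assist fusion, differed between mice. The FPKM of Cplx1 was 142, 144, 186 and 302 in the WT mice and 243, 334, 195 and 205 in the 16p11.2+/- mice. That of Cplx2 was 318, 288, 339.7 and 197 in the WT mice and 289.7, 223, 319.6 and 131 in the 16p11.2+/- mice. Mice WT-1063, DF-1037 and DF-1062 had more Cplx1 than Cplx2 and the other 5 had more Cplx2 than Cplx1. Neither differed by genotype beyond the spread between mice, with log2 fold changes of 0.32 for Cplx1 (SE 0.27) and -0.26 for Cplx2 (SE 0.30). The edgeR unadjusted p of Cplx1 with all mice was 0.273. Its log2 fold change was 0.61 without mouse WT-1063 (edgeR unadjusted p = 0.0215) and 0.13 without mouse DF-1037. These were the highest WT and the highest 16p11.2+/- mouse for Cplx1, so leaving out either moves its log2 fold change by construction. With the thalamic, medium spiny neuron or cortical score as a covariate, that of Cplx1 was 0.0044, 0.21 and 0.32. That of Cplx2 was -0.031 without mouse DF-1062. Nsf, the ATPase that takes SNARE complexes apart, had FPKM of 65.8 to 81.1 in WT mice and 72.2 to 99.3 in 16p11.2+/- mice and a log2 fold change of 0.26 (SE 0.13), which was 0.07 without mice DF-1037 and DF-1062. Napb, its beta-SNAP adaptor, had a log2 fold change of 0.16 (SE 0.10), and of 0.02 without these mice.

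**Figure D3:**
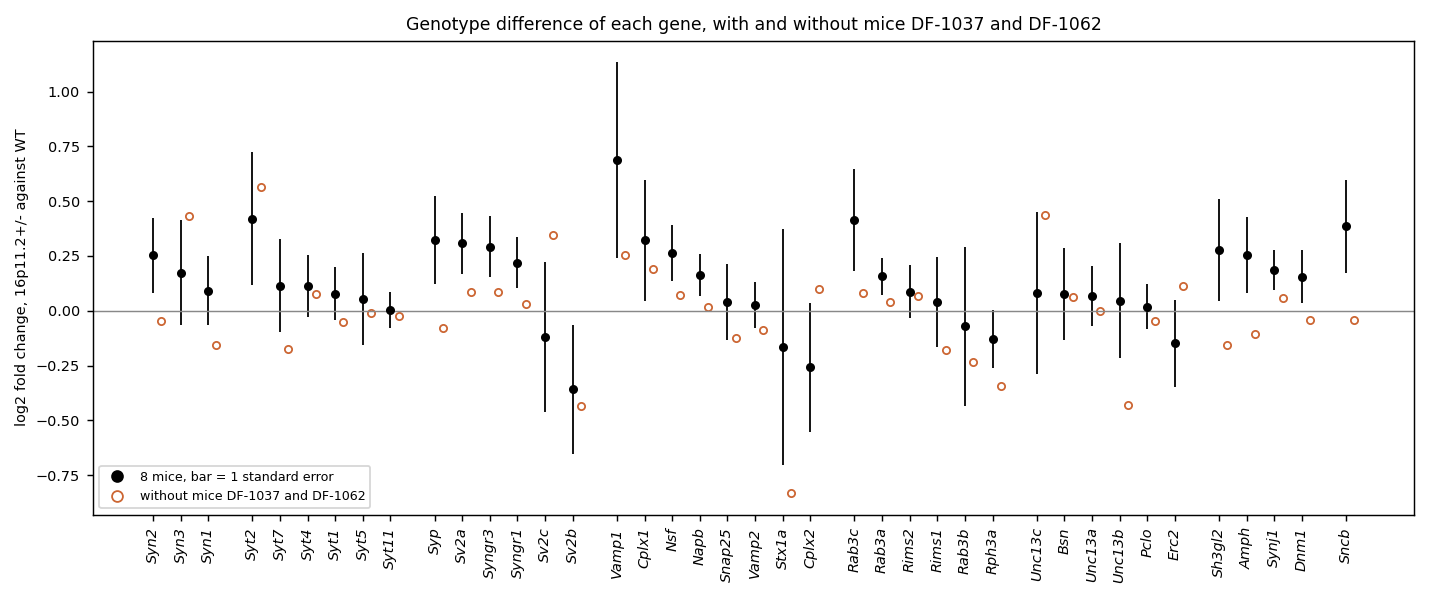
Log2 fold change of 16p11.2+/- against WT (vertical axis) of the 40 genes (horizontal axis, grouped by role) from edgeR with all 8 mice (black, bar 1 SE) and without mice DF-1037 and DF-1062 (open circles). With all mice 33 of 40 points are above 0, and without the 2 mice 19 are.

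Rab3 proteins bring vesicles to the active zone through rabphilin (Rph3a) and the RIM scaffolds (Rims1 and Rims2). The FPKM of Rab3a (ENSMUSG00000031840, chr8:70754679-70758677), the main form in brain, was 109, 109, 108 and 119 in the WT mice and 112, 136, 115 and 141 in the 16p11.2+/- mice. The upper 2 16p11.2+/- mice were again DF-1037 and DF-1062, and the other 2 lay below mouse WT-1063. The means were 111 ± 5.14 and 126 ± 14.6 (SD, n = 4 each), with a log2 fold change of 0.16 (SE 0.09, edgeR unadjusted p = 0.099, adjusted p = 0.859). Rab3c, a paralogue singled out after its values were seen, had an FPKM of 36.0, 35.8, 40.1 and 62.4 in the WT mice and 49.3, 67.1, 42.1 and 78.3 in the 16p11.2+/- mice. Mice WT-1063, DF-1018, DF-1037 and DF-1062 were again the upper 4, as for Vamp1. The log2 fold change of Rab3c was 0.41 (SE 0.23, edgeR unadjusted p = 0.108). It was 0.08 without mice DF-1037 and DF-1062 (edgeR unadjusted p = 0.747) and 0.63 without mouse WT-1063 (edgeR unadjusted p = 0.0124). Mouse WT-1063 was the highest WT mouse, so leaving it out raises the fold change by construction. With the thalamic, medium spiny neuron or cortical score as a covariate the log2 fold change of Rab3c was 0.067, 0.13 and 0.38. Rab3b had another order, with FPKM of 4.20 in mouse WT-1063 and 5.14 in mouse DF-1018 as its lowest values and 13.5 in mouse DF-1062 as its highest. Rph3a had a log2 fold change of -0.13 (SE 0.13) with all mice and -0.34 without mice DF-1037 and DF-1062, and Rims1 and Rims2 had 0.04 and 0.09.

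Munc13 proteins prime docked vesicles, and Bassoon (Bsn), Piccolo (Pclo) and CAST/ELKS2 (Erc2) are scaffolds of the active zone. The FPKM of Unc13a (ENSMUSG00000034799, chr8:71624417-71671757), the Munc13-1 gene, was 29.4, 28.2, 25.5 and 20.1 in the WT mice and 25.6, 31.7, 25.7 and 26.8 in the 16p11.2+/- mice. Only mouse DF-1037 was above the WT range, and mouse WT-1063 was the lowest. The log2 fold change was 0.07 (SE 0.14, 95% confidence interval -0.24 to 0.38). Unc13c, the Munc13-3 gene best known from cerebellum, had an FPKM of 16.4, 10.99, 29.5 and 29.98 in the WT mice and 35.9, 18.1, 22.3 and 16.3 in the 16p11.2+/- mice. Its order over mice differed from that of Unc13a, with mice DF-1037 and DF-1062 in the lower part of both ranges, and its log2 fold change was 0.08 (SE 0.37). Bsn, Pclo and Erc2 had log2 fold changes of 0.08, 0.02 and -0.15 (SE 0.21, 0.10 and 0.20), and Unc13b had 0.05 (SE 0.26).

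The 4 genes of vesicle endocytosis serve to retrieve membrane after fusion, and beta-synuclein (Sncb) is a presynaptic relative of alpha-synuclein. The FPKM of Dnm1 (ENSMUSG00000026825, chr2:32308471-32353338), the dynamin of synapses, was 114, 126, 107 and 119.6 in the WT mice and 111, 155, 114 and 148 in the 16p11.2+/- mice. Mice DF-1037 and DF-1062 were above every WT mouse, and mice DF-1018 and DF-1059 were within the WT range. The means were 117 ± 8.09 and 132 ± 22.6 (SD, n = 4 each), and the log2 fold change was 0.16 (SE 0.12, edgeR adjusted p = 0.859). Sncb (ENSMUSG00000034891, chr13:54758860-54766595) had an FPKM of 34.1, 40.8, 36.2 and 47.2 in the WT mice and 35.6, 72.4, 40.9 and 61.7 in the 16p11.2+/- mice. The same 2 mice were above the WT range, and the log2 fold change was 0.39 (SE 0.21) with all mice and -0.04 without them. Synj1, the phosphatase synaptojanin that frees vesicles of clathrin, had an FPKM of 46.9, 47.7, 44.8 and 44.3 in the WT mice and 47.2, 55.7, 47.8 and 61.5 in the 16p11.2+/- mice. Its lowest 16p11.2+/- mouse was above 3 of the 4 WT mice, and it had the smallest exact two-sided permutation p of the members, 0.0571, where 4 mice against 4 can give 0.0286. Amph (amphiphysin) and Sh3gl2 (endophilin A1) had log2 fold changes of 0.26 and 0.28 with all mice, and -0.11 and -0.16 without mice DF-1037 and DF-1062.

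Whether families kept their make-up was read from the share of a paralogue in the summed FPKM of its family within each mouse, for 10 shares. None had an exact p under 0.05, and the smallest exact two-sided permutation p was 0.171 (adjusted over the 10 shares 0.643), for Sv2b in the Sv2 family. Its share was 23.5% ± 5.56 in WT and 17.1% ± 6.77 in 16p11.2+/- mice (SD, n = 4 each). Cplx1 made up 30.9%, 33.3%, 35.3% and 60.6% of both complexins in the WT mice and 45.6%, 60.0%, 37.9% and 61.1% in the 16p11.2+/- mice. The 3 mice near 60% came from both genotypes (exact two-sided permutation p = 0.200). Vamp1 made up 3.38%, 3.16%, 6.24% and 11.8% of both synaptobrevins in the WT mice and 9.47%, 11.7%, 5.93% and 9.75% in the 16p11.2+/- mice. Mouse WT-1063 had the highest share of Vamp1, above all 4 16p11.2+/- mice. Syn1 made up 65.5% ± 0.82 of the synapsins in WT mice and 62.9% ± 4.64 in 16p11.2+/- mice (SD, n = 4 each).

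**Figure D4:**
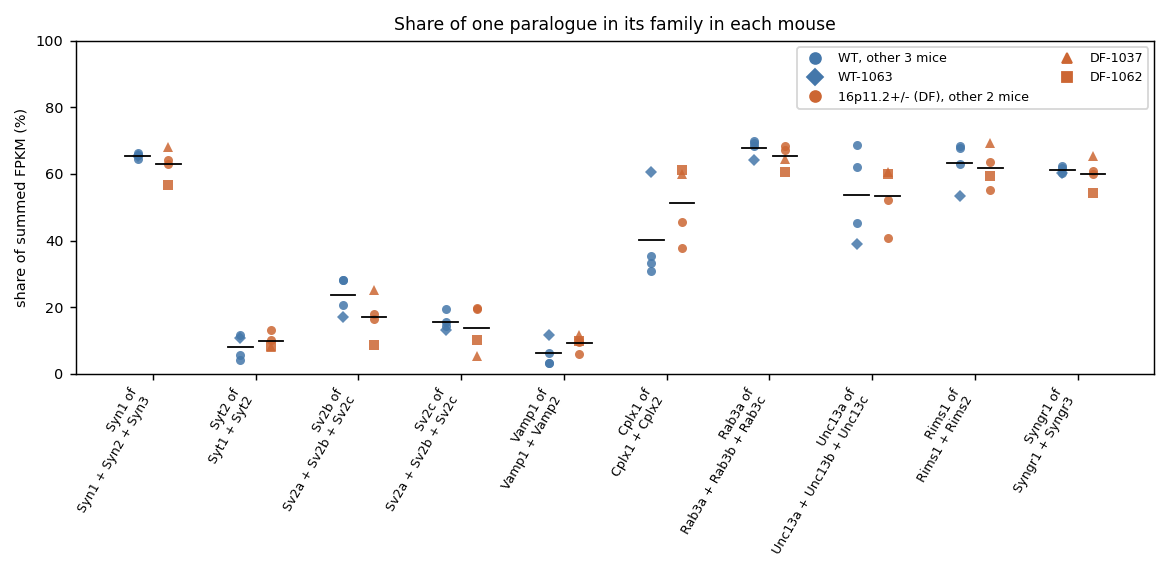
Share (%, vertical axis) of a paralogue in the summed FPKM of its family in each mouse, for 10 shares (horizontal axis), with WT in blue, 16p11.2+/- in orange and a black bar for the mean of 4 mice. Mouse WT-1063 (diamond) lies with mice DF-1037 and DF-1062 near 60% for Cplx1, and the groups overlap for each share.

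A further 80 genes of the same machinery that are no members were read from the same fit; 79 had a row, 78 passed the filter and 0 were called. Of these 78, 8 had an unadjusted p under 0.05, against 4.32% of all genes, and the groups did not overlap for 3 (Vamp3, Dnm2 and Picalm), against 2.83%. The median log2 fold change was 0.085 with 52 of 78 above 0, against 48.2% of all genes tested. Without mice DF-1037 and DF-1062 it was -0.014 with 37 of 78 above 0, against 47.6%. The smallest unadjusted p was that of Itsn1 (intersectin, an endocytic scaffold), with FPKM of 6.34, 6.96, 7.17 and 8.36 in the WT mice and 7.84, 8.69, 8.51 and 12.2 in the 16p11.2+/- mice. Of its 16p11.2+/- mice only DF-1018 was within the WT range (log2 fold change 0.34, SE 0.13, edgeR unadjusted p = 0.0284, adjusted p = 0.859). Vamp3, the synaptobrevin of most cell types, came second with a log2 fold change of -0.22 (SE 0.08, edgeR unadjusted p = 0.0307), which was -0.15 without mice DF-1037 and DF-1062. Its FPKM was 14.8 to 16.54 in WT mice and 12.5 to 14.2 in 16p11.2+/- mice. Baiap3, a Munc13-related gene, was next with 1.86 (SE 0.76, edgeR unadjusted p = 0.0379). Its FPKM was 57.9 in mouse DF-1062 and at most 15.4 elsewhere, and its log2 fold change was 1.02 without mice DF-1037 and DF-1062 and between 0.66 and 2.21 with a single mouse left out. It was followed by Dnm2, the dynamin of most cell types, with -0.18 (SE 0.08, edgeR unadjusted p = 0.0409), which was -0.15 without mice DF-1037 and DF-1062, and FPKM of 14.6 to 16.0 in WT mice and 12.7 to 14.4 in 16p11.2+/- mice. Snap47, a SNARE, had 0.35 (SE 0.15, edgeR unadjusted p = 0.0437), and 0.10 without these mice.

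The vesicular glutamate transporters of this wider list, which are also markers of the thalamic and cortical lists, gave the spread between mice in another form. Slc17a6 (VGLUT2) had an FPKM of 1.82, 1.58, 2.37 and 44.7 in the WT mice and 16.8, 40.5, 5.47 and 56.0 in the 16p11.2+/- mice. The 4 high mice were the 4 with high Vamp1. Slc17a7 (VGLUT1) had an FPKM of 53.8, 67.9, 29.0 and 20.2 in the WT mice and 10.4, 106, 25.3 and 7.83 in the 16p11.2+/- mice, and the 3 highest were the mice with the highest Stx1a. Inside the deleted segment lie 2 genes of the wider list, Doc2a, a calcium sensor of spontaneous release, and Prrt2, a SNARE-binding membrane protein, both with low counts. Their log2 fold changes were -0.99 (SE 0.63, edgeR unadjusted p = 0.151) and -0.54 (SE 0.52, edgeR unadjusted p = 0.325), with FPKM of 0.441 to 2.31 for Doc2a and 0.117 to 0.502 for Prrt2 in WT mice. In 16p11.2+/- mice the FPKM was 0.140 to 1.14 for Doc2a and 0.136 to 0.454 for Prrt2. The log2 fold change of Doc2a was -2.12 without mice DF-1037 and DF-1062 (edgeR unadjusted p = 0.028) and -2.41 without these and mouse WT-1063 (edgeR unadjusted p = 0.00319). That of Prrt2 was -1.002 (edgeR unadjusted p = 0.152) and -1.29 (edgeR unadjusted p = 0.0193) in the same fits. For Doc2a, mice DF-1037 and DF-1062 were the 2 highest 16p11.2+/- mice (FPKM 1.14 and 1.06) and mouse WT-1063 the lowest WT mouse (0.441). For Prrt2, mouse DF-1037 was the highest 16p11.2+/- mouse (0.454) and mouse WT-1063 the lowest WT mouse (0.117). These fits, chosen after seeing the data, thus lower both fold changes by construction, and their p-values are no test of the deletion. With the medium spiny neuron score as a covariate, Doc2a had -1.86 (edgeR unadjusted p = 0.0288) and Prrt2 -0.62 (edgeR unadjusted p = 0.378). The thalamic score as a covariate gave -0.57 for Doc2a (edgeR unadjusted p = 0.548) and -0.21 for Prrt2 (edgeR unadjusted p = 0.776). The cortical score gave -0.56 (edgeR unadjusted p = 0.338) and -0.31 (edgeR unadjusted p = 0.499). With a single mouse left out, Doc2a ran from -1.32 to -0.63 and Prrt2 from -1.03 to -0.30. Reads of Doc2a and of Ino80e, which overlaps 39.4% of its exon length on the other strand, may not be told apart. The same holds for Prrt2 and Gm42742 (92.4%, on the same strand). How the counting treated such reads is not given, so the low counts and FPKM may not show the level of these genes.

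At this depth and number of mice the 95% confidence interval of the log2 fold change lay within -1 and 1 for 36 of the 40 members, all but Syt2, Sv2b, Vamp1 and Stx1a, and the median SE was 0.19. The members with an unadjusted p under 0.05 depended on the model and on the mice in the fit, while 0 were called each time. With all 8 mice and the medium spiny neuron score as a covariate there was 1, Rph3a at -0.28, against 571 of 18294 genes. With the thalamic score as a covariate there was 1, Syn3 at 0.50, against 784 of 18294. With no count filter there was 1, Sv2a, against 1364 of 35741. Without mouse WT-1063 there were 5 (Sv2a, Cplx1, Vamp1, Nsf and Rab3c, all with a log2 fold change above 0), against 8.21% of all genes in that fit. Without mouse DF-1018 there were 7 (Syp, Sv2a, Syn2, Amph, Sncb, Syngr1 and Syngr3, all above 0), against 7.17%, and without mouse DF-1059 there were 5 (Sv2a, Nsf, Rab3c, Synj1 and Syngr3, all above 0), against 5.06%. Mouse WT-1063 was the highest WT mouse for each of the 5 genes of its fit. Mouse DF-1018 was the lowest 16p11.2+/- mouse for each of the 7 of its fit. Leaving out such a mouse raises these fold changes by construction. Without mouse DF-1037, the highest 16p11.2+/- mouse for Sv2b, 1 member had an unadjusted p under 0.05, Sv2b at -0.65, against 5.69%. Without mouse DF-1062 or any other single WT mouse there were 0. Without mice DF-1037 and DF-1062 there were 2, Unc13b at -0.43 and Rph3a at -0.34, against 4.03%. Without mice DF-1037, DF-1062 and WT-1063 there were 8, against 8.49%, of which Stx1a at -1.10, Sv2b at -0.57, Unc13b at -0.42, Rph3a at -0.39 and Rims1 at -0.27 were below 0 and Vamp1 at 0.80, Cplx1 at 0.48 and Rab3c at 0.30 above it.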

How the data were processed

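The 8 striatum libraries (4 WT and 4 16p11.2+/-) were filtered for quality and adapters, mapped with Hisat2 and counted with Htseq-count by the authors, and the submitters' processing notes also name Bowtie 0.12.2 and the builds mm8 and mm9. The build, annotation and strand setting of the counting are not given in the sources used here. For each gene and mouse the authors deposited the raw count and its FPKM, which was the count over a fixed gene length and the mouse's total. A deposited table of the authors' own comparison (group signals, fold changes and p-values) and a summary of FPKM in bins were not used.

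Genes were tested on the raw counts with edgeR (4.0.16, under R 4.3.3) by its quasi-likelihood test after TMM scaling. The filter filterByExpr was run with a minimum of 10 counts and a total of 15, the fit took in the whole table, and p-values were adjusted by the Benjamini-Hochberg method at 0.05. For FPKM and shares, exact two-sided permutation tests went over all 70 assignments of the mice. Marker scores used log2 CPM with a prior count of 2. Alternatives were DESeq2 1.42.0, limma 3.58.1 (voom, and trend on log2 FPKM with 1 or 0.1 added), RLE factors, library totals, other filters, marker scores as covariates and each mouse left out. Fits without mice DF-1037 and DF-1062, and without these and WT-1063, were added after seeing the data. The edgeR, DESeq2 and limma-voom fits of all 8 mice were tested on simulated data in which 200 genes were changed. The other alternatives were not tested on simulated data.

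The members and lists were chosen with earlier results of these data known. Values of every mouse were set to be given for the member of highest mean FPKM of each role and for members past a test, and the 5 genes of smallest p in the wider list were to be named. All other members given with values of every mouse, the DESeq2 genes, and Picalm, Slc17a6, Slc17a7, Doc2a and Prrt2 were singled out after their values were seen. Gene positions come from GENCODE M21 (GRCm38), and its exon lengths agreed within 0.1% with those implied by the FPKM for 95.4% of 14636 genes and equalled them for 38 of the 40 members. Between mice of a genotype the counts differed by 8.88 to 62.9 times what sampling gives (a chi-square over its degrees of freedom), and each library was counted as a separate mouse. The labels give no batch.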

Additional observations from a re-analysis of the deposited data

Results flagged for a closer look

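In groups of 4 mice, 5 of the 100 groups tested (40 genes and 10 shares in each genotype) held a mouse far from the other 3 by Dixon's ratio of its gap to the range, past its 95% critical value, and chance gives about 1 in 20. Snap25 had an FPKM of 386 in mouse DF-1037, against 240.5 to 250.2 in the other 3 (ratio 0.933). Napb, the beta-SNAP gene, had 60.6 in mouse WT-1041, against 56.5 to 56.9 (ratio 0.907). The other 3 were mouse WT-1063: Rab3a with an FPKM of 119, against 108 to 109 (ratio 0.843), Rab3c with 62.4, against 35.8 to 40.1 (ratio 0.839), and the share of Cplx1 in both complexins with 60.6%, against 30.9% to 35.3% (ratio 0.850). Mouse WT-1063 also had the highest thalamic (6.38) and choroid plexus (7.64) scores, whose part in these values was not tested.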

How the results depend on the processing

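The count of members called was 0 under every alternative run, and the median log2 fold change of the members stayed between 0.054 and 0.17 under all fits with 8 mice and between 0.083 and 0.16 with a single mouse left out. For the wider list the count was 0 throughout, and the median lay between 0.060 and 0.12 with a single mouse left out. No paired analysis was possible because no animal number occurs in both genotypes. Without mice DF-1037, DF-1062 and WT-1063 the median of the members was -0.039 and that of the wider list -0.021, without mice DF-1037 and DF-1062 the latter was -0.014, and with the medium spiny neuron score as a covariate it was 0.019. Without mice DF-1037 and DF-1062 the log2 fold change changed sign for 20 members, to Syn1 -0.16, Syn2 -0.047, Syt1 -0.052, Syt5 -0.010, Syt7 -0.17, Syt11 -0.024, Syp -0.081, Sv2c 0.35, Vamp2 -0.088, Snap25 -0.12, Cplx2 0.097, Rims1 -0.18, Unc13a -0.0032, Unc13b -0.43, Pclo -0.046, Erc2 0.11, Dnm1 -0.042, Amph -0.11, Sh3gl2 -0.16 and Sncb -0.042. Without mice DF-1037, DF-1062 and WT-1063 the log2 fold change changed sign for 18 members, to Syn1 -0.21, Syn2 -0.10, Syt1 -0.064, Syt5 -0.19, Syt7 -0.063, Syt11 -0.043, Syp -0.015, Sv2c 0.27, Vamp2 -0.11, Snap25 -0.10, Rims1 -0.27, Unc13a -0.11, Unc13b -0.42, Bsn -0.064, Pclo -0.12, Dnm1 -0.035, Amph -0.062 and Sh3gl2 -0.10. With the medium spiny neuron score as a covariate the log2 fold change changed sign for 15 members, to Syn1 -0.079, Syt1 -0.0098, Syt7 -0.11, Syt11 -0.0039, Syp -0.0018, Sv2c 0.22, Vamp2 -0.051, Snap25 -0.053, Cplx2 0.085, Rims1 -0.076, Unc13b -0.30, Pclo -0.011, Erc2 0.094, Amph -0.037 and Sh3gl2 -0.044. With the thalamic score as a covariate the log2 fold change changed sign for 10 members, to Syt7 -0.16, Sv2c 0.14, Stx1a 0.22, Snap25 -0.073, Cplx2 0.091, Rab3b 0.47, Rims2 -0.057, Unc13b -0.16, Unc13c -0.025 and Erc2 0.13. With the cortical score as a covariate the log2 fold change changed sign for 3 members, to Stx1a 0.17, Rab3b 0.14 and Unc13c -0.041. With limma-voom that of Unc13b alone did, to -0.022. With a single mouse left out, the sign of 17 members depended on the mouse, with ranges of Syn1 -0.055 to 0.19, Syt1 -0.014 to 0.14, Syt5 -0.12 to 0.20, Syt7 -0.088 to 0.25, Syt11 -0.026 to 0.032, Sv2c -0.32 to 0.14, Vamp2 -0.051 to 0.084, Stx1a -0.76 to 0.14, Snap25 -0.16 to 0.13, Rab3b -0.32 to 0.12, Rims1 -0.20 to 0.15, Unc13a -0.036 to 0.15, Unc13b -0.28 to 0.20, Unc13c -0.23 to 0.27, Bsn -0.077 to 0.22, Pclo -0.059 to 0.073 and Sh3gl2 -0.00083 to 0.41. So did that of the difference in share of Sv2c -4.01 to 0.807, Unc13a -5.31 to 4.63, Rims1 -4.63 to 0.825 and Syngr1 -2.86 to 0.767 percentage points. None of these values passed a test in any fit with 8 mice, and the cause of the changes of sign was not tested.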
